A study of Mus musculus with 26 samples.

Results

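The axon guidance ligands and receptors described here are the 66 genes, of 14833 listed in any of the 5 deposited tables, whose symbol belongs to the semaphorins, plexins, neuropilins, ephrins, Eph receptors, Slits, Robos, netrins or Unc5 receptors. They were chosen by a rule on the symbol alone, though with earlier results of these data known, and comprise 34 ligands and 32 receptors. Striatal RNA from mouse models of Huntington's disease was sequenced beside wild-type RNA, and an adeno-associated virus (AAV) for the ETS factor Elk-1 was tested in R6/1. The R6/1 transgene holds huntingtin exon 1 of human origin with an expanded CAG repeat under the huntingtin promoter, while in CHL2 mice an expanded repeat sits in the mouse huntingtin gene itself. The comparisons were R6/1 against wild type at ages of 4 and 8 weeks, and CHL2 against wild type at 1 year, with 3 libraries in each of these 6 groups. The other groups, sampled at 10 weeks, were Elk-1-AAV R6/1 (4 libraries), control-AAV R6/1 (2) and control-AAV wild type (2), which makes 26 libraries in 9 groups. The deposited row labels give the control vector as mCherry, and the promoter of the vectors is not given in the sources used here.

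Each deposited table holds 1 FPKM value per group and gene (fragments scaled to transcript length and library size), so every level below is the authors' pooled group value and the spread between libraries is not known. Below, "rose" and "fell" are kept for genes with a q under 0.05, where q is the authors' deposited p adjusted over all rows of the table. In striatal tissue, fewer cells of a type and less RNA per cell cannot be told apart.

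Axon guidance cues steer growing axons by attraction and repulsion. Secreted class 3 semaphorins act through neuropilins and class A plexins, other semaphorins bind plexins directly, ephrins on one cell signal to Eph receptors on another, Slits repel through Robo receptors, and netrins attract or repel depending on whether an Unc5 receptor is present. In the adult brain the same molecules are known for roles in synapse formation, spine shape and plasticity, and in the striatum semaphorin 3E and its receptor plexin D1 set the specificity of inputs onto projection neurons of the direct pathway.

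All 10 spiny projection neuron markers, which define striatal tissue, were listed in every group, from 19.5 FPKM upward. Their summed FPKM was 2274 in R6/1 against 2901 in wild type at 4 weeks, 1277 against 3325 at 8 weeks, 1597 in CHL2 against 3093 in wild type, 1156 in control-AAV R6/1 against 2520 in control-AAV wild type, and 1426 in Elk-1-AAV R6/1 against 1184 in control-AAV R6/1. Markers of neighbouring tissue moved as well. The summed septal and hypothalamic markers were 58.8 in R6/1 against 128 in wild type at 4 weeks, 34.5 against 21.7 at 8 weeks, 182 in CHL2 against 82.4 in wild type, 372 in control-AAV R6/1 against 71.1 in control-AAV wild type, and 43.4 in Elk-1-AAV R6/1 against 381 in control-AAV R6/1. Choroid plexus markers summed to 578 in R6/1 against 1499 in wild type at 8 weeks and to 1572 in control-AAV R6/1 against 341 in control-AAV wild type. Cortical excitatory neuron markers summed to 196 in R6/1 against 313 in wild type at 8 weeks and to 310 in control-AAV R6/1 against 587 in control-AAV wild type. None of these markers was listed at 0 in a group. The part of such shares in the results below was not tested.

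**Figure D1:**
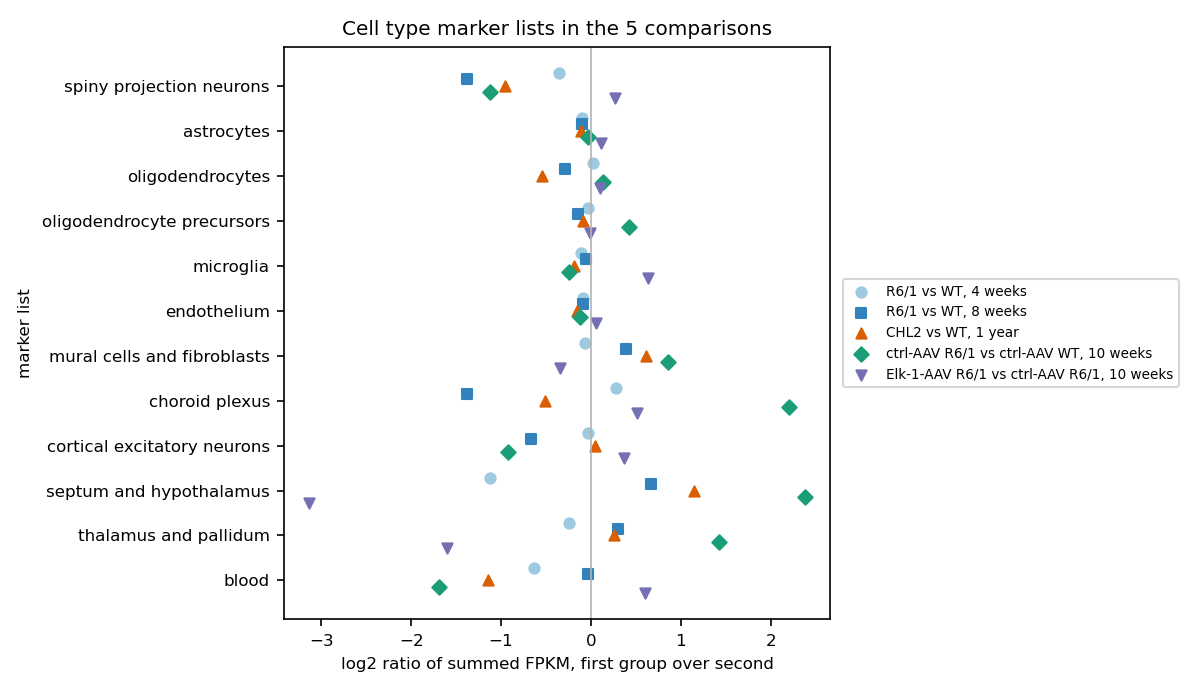
Log2 ratio of summed FPKM (x axis) for 12 lists of cell type markers (y axis), with 1 symbol per comparison. Spiny projection neuron markers lie below 0 in the 4 genotype comparisons, and septal and hypothalamic markers spread most widely, with opposite signs in the 2 AAV comparisons, which share a pool.

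Members of all 9 families were expressed in striatum. Of the 66 genes, 59 had a row in all 5 tables, and the 7 others (Epha2, Epha3, Ephb4, Robo4, Sema3d, Sema3g and Ntn5) were missing from 1 or more. No member was listed at 0 in a group. Over the groups of the 4-week, 8-week and 1-year tables the highest mean level was that of Efnb3, a transmembrane ephrin, at 79.2 FPKM. Next came the transmembrane semaphorin Sema6b at 42.2 FPKM, the GPI-anchored semaphorin Sema7a at 37.4 FPKM and Epha4, an Eph receptor for ephrins of both classes, at 33.5 FPKM. FPKM is scaled to transcript length, and these levels are set side by side as a description. Some of the group differences below still moved with transcript length. Plxnd1 was the highest plexin (22.3 FPKM) and Plxna3 the lowest (6.16 FPKM). Among the other families the highest and lowest were Unc5a (26.2 FPKM) and Unc5c (5.48 FPKM), Robo2 (20.2 FPKM) and Robo3 (2.17 FPKM), Slit1 (13.2 FPKM) and Slit2 (4.41 FPKM), Nrp2 (9.38 FPKM) and Nrp1 (6.10 FPKM), and Ntn1 (5.41 FPKM) and Ntn5 (0.979 FPKM, from the 1-year table alone). Sema3g (1.59 FPKM), Efna1 (2.92 FPKM) and Epha2 (0.513 FPKM, from 2 tables) were the lowest of the semaphorins, ephrins and Eph receptors. Unc5a shares its listed position with Hk3 in 3 tables, and Epha6 and Ntn3 share theirs with Arl6 and Tbc1d24 in all 5, so the values of these genes may hold reads of their neighbours.

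Across the 5 tables, 15 members (5 ligands and 10 receptors) were called at least once, and 51 never were. Only Sema7a was called in 3 tables, and Plxnd1, Robo3 and Slit1 were called in 2. No member was called in opposite directions in different tables.

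**Figure D2:**
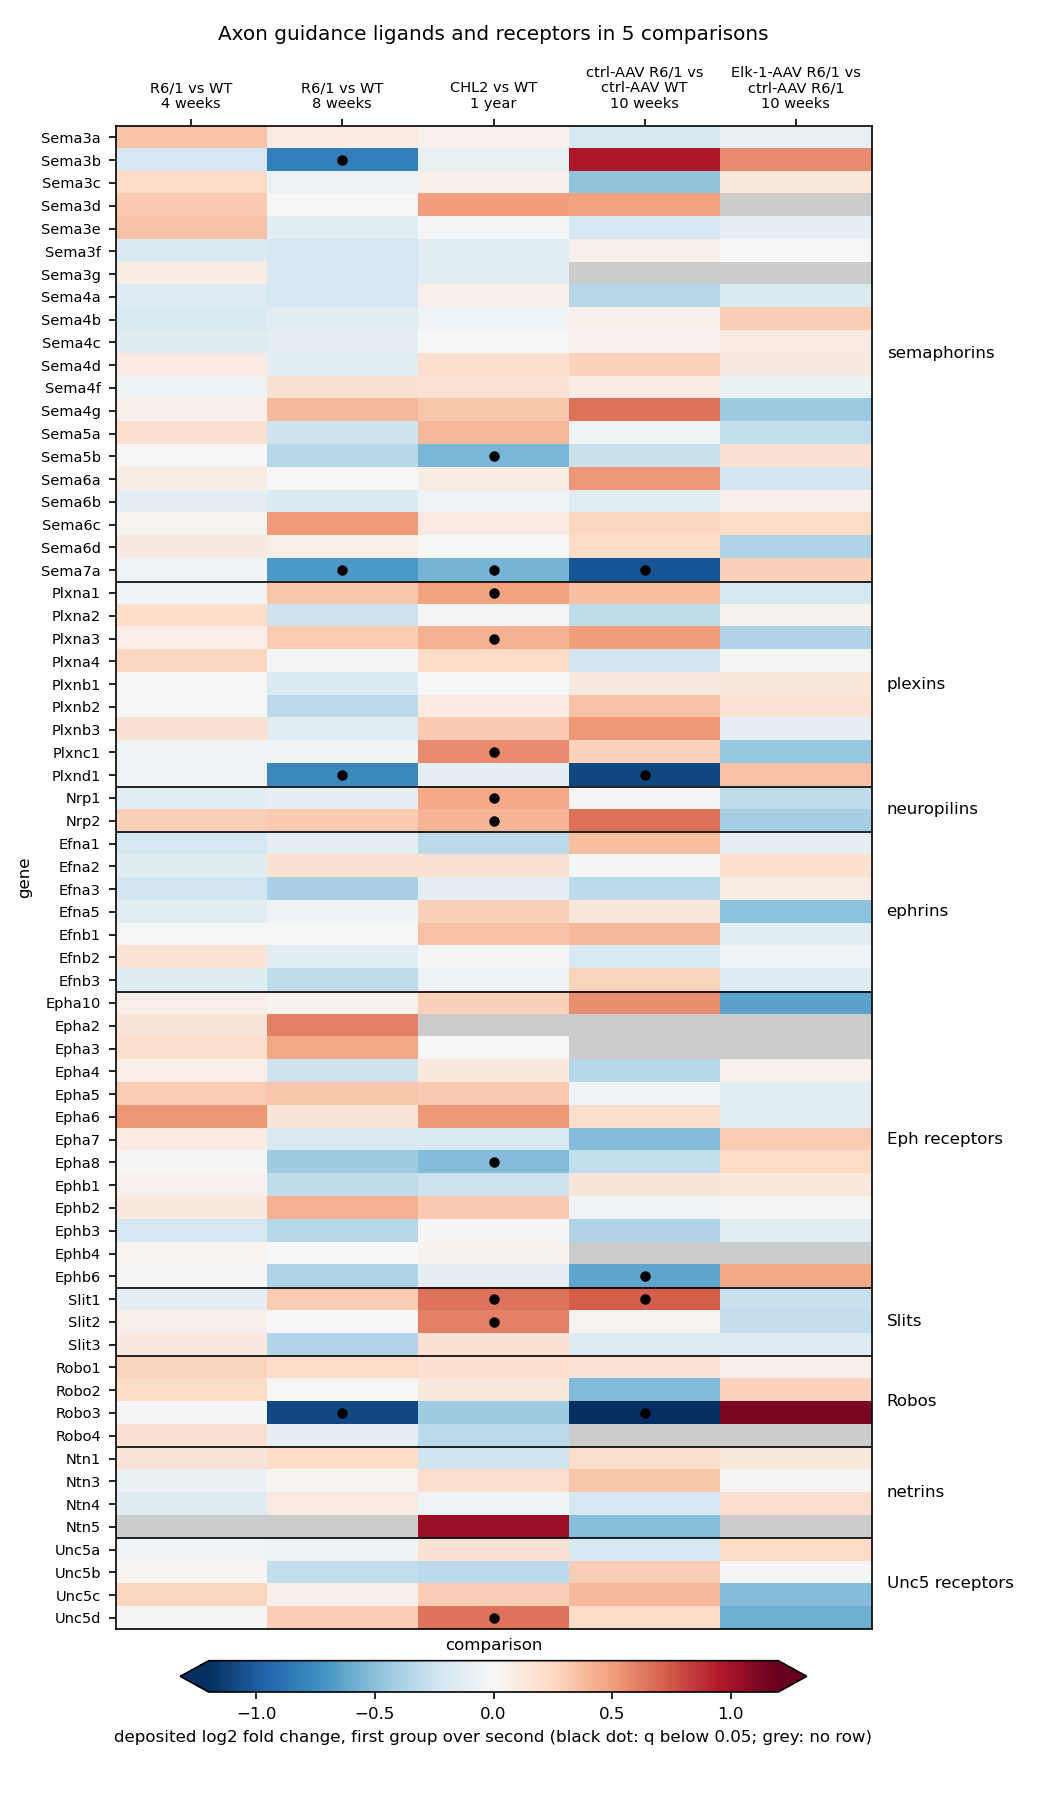
Deposited log2 fold change (colour, first-named group over the second) of the 66 genes (rows, by family) in the 5 comparisons (columns). A black dot marks q below 0.05 and grey a gene with no row; dots mark 4 genes at 8 weeks, 11 in CHL2 and 5 in the 10-week genotype column, and Robo3 there (-2.04) lies beyond the colour scale.

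Sema7a, Plxnd1 and Robo3 were lower in R6/1 striatum at 8 weeks and again, in other libraries, at 10 weeks. These 3 genes are described first. Sema7a encodes the membrane-anchored semaphorin that binds plexin C1 and integrins, Plxnd1 the receptor of semaphorin 3E, and Robo3 a divergent Robo receptor known from the midline crossing of commissural axons. The sequence around their annotated start sites is shown because the 3 genes fell together in both tables. Each line gives 250 bases before to 50 bases after the start, from RefSeq on GRCm38.p6, 5′ to 3′ on the gene's strand. The positions are chr9:57939862-57940161 on the plus strand for Sema7a, chr6:115994956-115995255 on the minus strand for Plxnd1 and chr9:37433126-37433425 on the minus strand for Robo3. Capitals mark the GC box and the short core of the cyclic AMP response element (CRE).
Sema7a: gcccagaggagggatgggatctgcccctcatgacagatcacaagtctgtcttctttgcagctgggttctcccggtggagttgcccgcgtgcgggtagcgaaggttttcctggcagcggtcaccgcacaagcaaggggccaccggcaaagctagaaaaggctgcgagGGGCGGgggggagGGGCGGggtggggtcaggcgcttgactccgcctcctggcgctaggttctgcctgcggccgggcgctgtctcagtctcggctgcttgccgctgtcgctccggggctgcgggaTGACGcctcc
Plxnd1: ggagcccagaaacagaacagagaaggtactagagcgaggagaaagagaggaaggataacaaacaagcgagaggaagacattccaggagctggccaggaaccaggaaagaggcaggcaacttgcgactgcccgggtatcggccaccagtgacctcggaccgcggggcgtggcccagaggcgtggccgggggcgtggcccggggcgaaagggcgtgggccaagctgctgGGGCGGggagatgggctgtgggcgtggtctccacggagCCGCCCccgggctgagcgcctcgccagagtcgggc
Robo3: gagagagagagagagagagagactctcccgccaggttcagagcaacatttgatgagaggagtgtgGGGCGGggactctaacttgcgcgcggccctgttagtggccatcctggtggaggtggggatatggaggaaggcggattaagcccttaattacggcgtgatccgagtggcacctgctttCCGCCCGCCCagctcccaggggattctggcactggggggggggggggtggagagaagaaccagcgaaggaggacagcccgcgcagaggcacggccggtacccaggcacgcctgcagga

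The windows are rich in G and C, at 67.3% for Sema7a, 67.0% for Plxnd1 and 63.3% for Robo3, against a median of 52.7% over 32851 promoter windows. The GC box GGGCGG, searched on both strands, matched 2, 2 and 3 times in Sema7a, Plxnd1 and Robo3, and 35.7% of all windows hold it. GGAA, the short stretch within motifs of the ETS family to which Elk-1 belongs, was not counted. It can be read in all 3 windows when both strands are taken. An extended ETS motif with GGAA in it, CCGGAAG, had no match in these 3 windows and is held by 8.86% of all windows. There was likewise no match to the EGR motif GCGTGGGCG (0.612% of windows) or its other form GCGGGGGCG (2.91%), to the SRF CArG box (1.63%), to AP-1 TGANTCA (7.81%), to the E-box CACGTG (7.15%) or to the full CRE TGACGTCA (1.79%). The CRE core TGACG, which lies within the full CRE, matched once, in Sema7a (20.8% of windows). A match is a description of these letters and not a binding site.

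At 4 weeks these 3 genes stood close together in the 2 genotypes. Sema7a was at 38.5 FPKM in R6/1 and 39.7 FPKM in wild type, Plxnd1 at 20.5 FPKM in R6/1 and 21.2 FPKM in wild type, and Robo3 at 2.44 FPKM in R6/1 and 2.47 FPKM in wild type, all with q = 0.999 in the authors' deposited table. At 8 weeks Sema7a, on chromosome 9 (mm9 57787941 to 57810672), was at 32.1 FPKM in R6/1 against 51.9 FPKM in wild type (log2 ratio -0.69, q = 0.00160 in the authors' deposited table). Plxnd1, on chromosome 6 (mm9 115904828 to 115945023), was at 17.9 FPKM in R6/1 against 30.5 FPKM in wild type (-0.77, q = 0.00160 in the authors' deposited table). Robo3, on chromosome 9 (mm9 37223629 to 37240760), was at 1.47 FPKM in R6/1 against 3.12 FPKM in wild type (-1.08, q = 0.00160 in the authors' deposited table). All 3 had the lowest q that the 8-week table holds. That value is a floor shared with other genes, Penk and Scn4b among them, so it does not rank these 3. The lowest q of each other comparison is likewise shared by several genes.

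In the control-AAV pools at 10 weeks the falls of the same 3 genes were larger in log2 fold change. Sema7a was at 32.7 FPKM in R6/1 against 67.2 FPKM in wild type (-1.04), Plxnd1 at 7.80 FPKM against 16.6 FPKM (-1.09) and Robo3 at 1.28 FPKM against 5.23 FPKM (-2.04), each with q = 0.00312 in the authors' deposited table. Whether the 8-week and 10-week effects differ was not tested, and the 10-week groups received AAV while the 8-week groups did not. In CHL2 at 1 year only Sema7a of the 3 fell, at 25.1 FPKM in CHL2 against 37.1 FPKM in wild type (-0.56, q = 0.00303 in the authors' deposited table). Plxnd1 (20.9 FPKM in CHL2, 22.6 FPKM in wild type, q = 0.796) and Robo3 (1.497 FPKM in CHL2, 2.01 FPKM in wild type, q = 0.267) missed the threshold in the authors' deposited table. The summed cortical excitatory neuron markers, which were lower in R6/1 at 8 and 10 weeks, stood at 195 in CHL2 and 188 in wild type, where Sema7a was also lower.

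**Figure D3:**
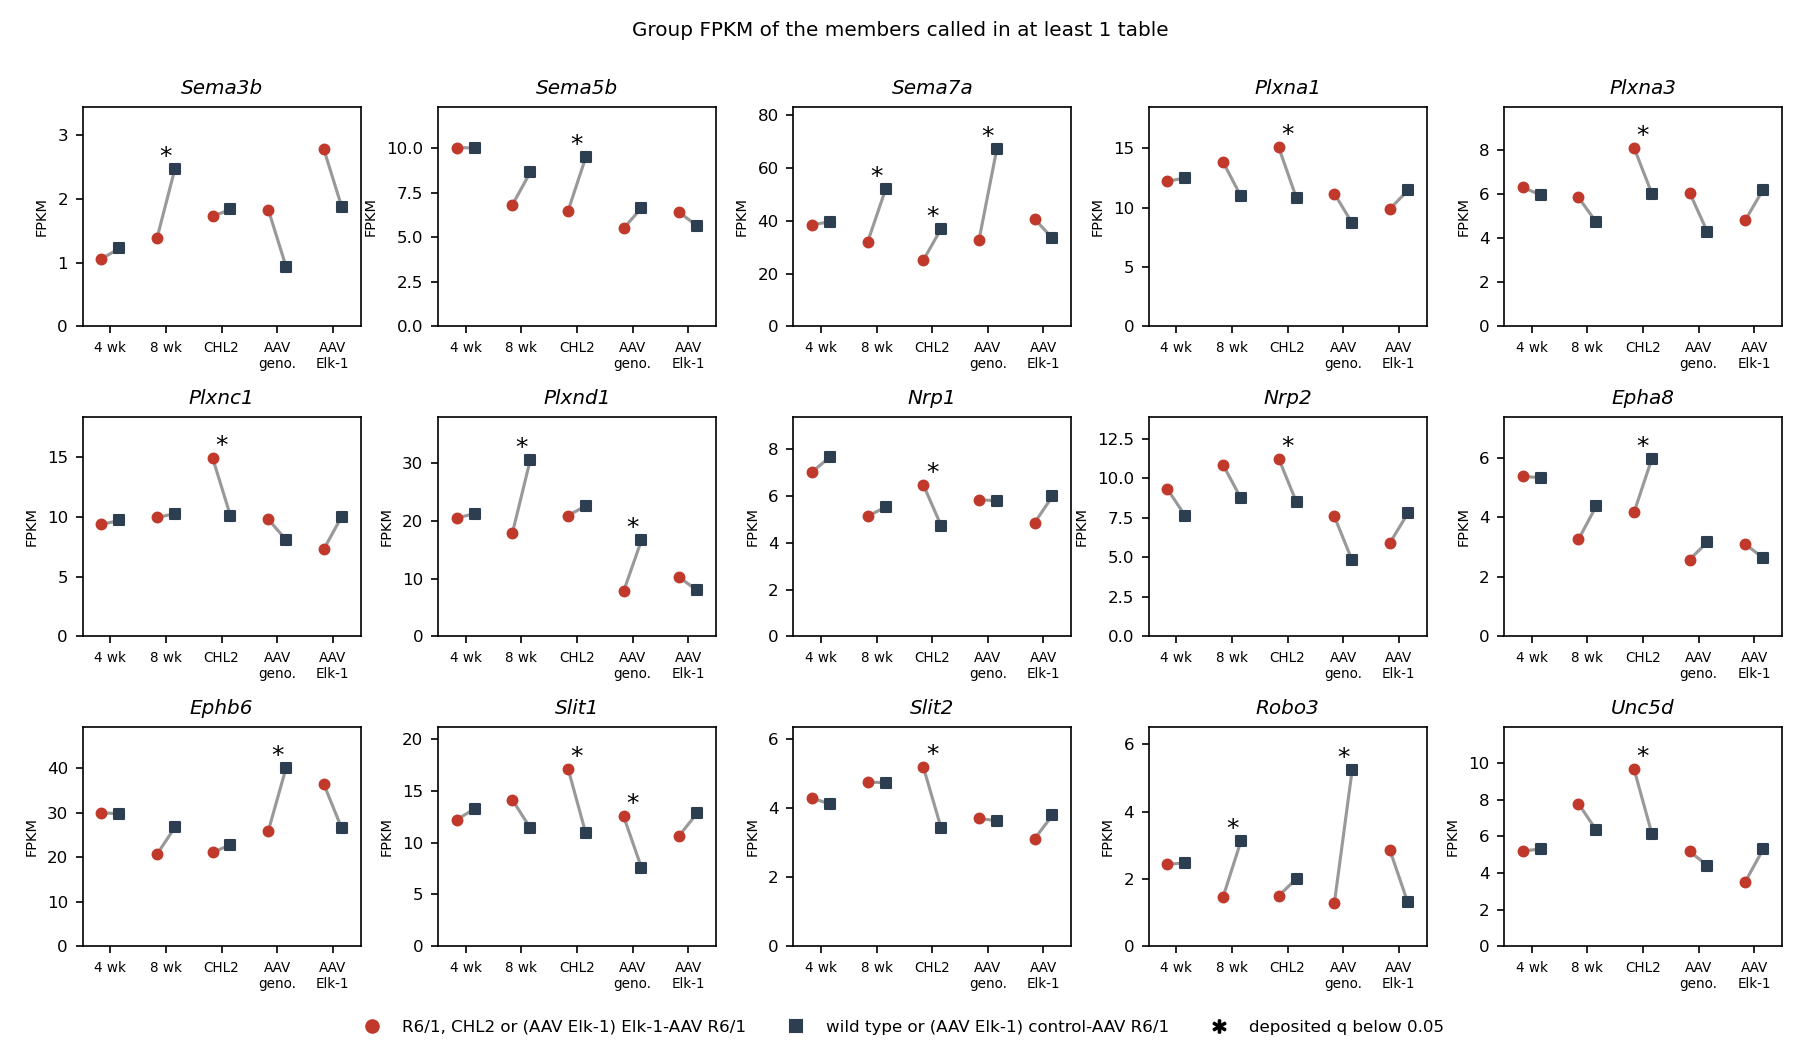
Group FPKM (y axis, from 0) of the 15 members called in at least 1 table, in the 5 comparisons (x axis: R6/1 at 4 and 8 weeks, CHL2 at 1 year, and the AAV genotype and Elk-1 comparisons at 10 weeks). Circles are R6/1, CHL2 or Elk-1-AAV R6/1 pools, squares their wild-type or control-AAV R6/1 pools, and asterisks mark q below 0.05; Sema7a, Plxnd1 and Robo3 have circles below squares at 8 weeks and in the AAV genotype comparison, and circles near squares at 4 weeks.

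At 4 weeks no guidance gene passed. Of the 65 members listed, 0 rose and 0 fell, against 0.275% and 0.193% of all rows. At an unadjusted p below 0.05 in the authors' deposited table (Cuffdiff), 11 members were higher in R6/1 and 0 lower, against 3.26% and 2.10% of all rows. The largest differences upward in log2(FPKM + 1) were in Epha6, an Eph receptor (7.48 FPKM in R6/1, 5.17 FPKM in wild type), the secreted semaphorins Sema3e (8.22 FPKM in R6/1, 6.44 FPKM in wild type) and Sema3a (5.71 FPKM in R6/1, 4.49 FPKM in wild type), Epha5 (12.5 FPKM in R6/1, 10.2 FPKM in wild type), Nrp2 (9.32 FPKM in R6/1, 7.62 FPKM in wild type) and Robo1 (12.96 FPKM in R6/1, 10.8 FPKM in wild type). Downward they were in the ephrins Efna3 (23.5 FPKM in R6/1, 27.6 FPKM in wild type), Efna1 (2.81 FPKM in R6/1, 3.22 FPKM in wild type) and Efnb3 (77.9 FPKM in R6/1, 86.3 FPKM in wild type), the receptor Ephb3 (3.63 FPKM in R6/1, 4.20 FPKM in wild type) and the class 4 semaphorins Sema4a (17.4 FPKM in R6/1, 19.3 FPKM in wild type) and Sema4b (5.53 FPKM in R6/1, 6.26 FPKM in wild type). Ephrins had lower values in R6/1 in 6 of 7 cases, and Eph receptors had higher values in 12 of 13. Among all genes 7053 had lower values and 7191 higher ones.

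The 4-week differences moved with transcript length, whose part in them was not tested. Across 14084 genes the log2(FPKM + 1) difference had a Spearman correlation of 0.48 with the longest annotated transcript, and across the 65 members 0.61; both are across genes, which share the same pools. The members have long transcripts, with a median of 5038 bases against 3424 for all genes. Their median difference was 0.032 on the log2(FPKM + 1) scale, against 0.0012 for all genes, and it was -0.0010 after taking off the median of genes in the same of 10 classes of length. By the same step the median went from 0.063 to 0.015 for Eph receptors and from -0.12 to -0.089 for ephrins.

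At 8 weeks 4 of 65 listed members (6.15%) fell and 0 rose, against 5.34% and 0.789% of all rows, a share of falls near that of all rows. At an unadjusted p below 0.05 in the authors' deposited table (Cuffdiff), 13 were lower and 10 higher, against 10.4% and 3.86% of all rows. Besides Sema7a, Plxnd1 and Robo3 this was Sema3b, a secreted semaphorin, at 1.39 FPKM in R6/1 against 2.47 FPKM in wild type (log2 ratio -0.83, q = 0.0484 in the authors' deposited table). In the control-AAV pools Sema3b stood the other way round, at 1.83 FPKM in R6/1 and 0.936 FPKM in wild type, and did not pass (q = 0.502 in the authors' deposited table). The summed choroid plexus markers given above were lower in R6/1 at 8 weeks and higher in control-AAV R6/1, as Sema3b was, and their part in it was not tested. Just outside the threshold at 8 weeks were Ephb6, an Eph receptor without kinase activity (20.7 FPKM in R6/1, 26.7 FPKM in wild type, q = 0.0636), Sema6c (6.56 FPKM in R6/1, 4.61 FPKM in wild type, q = 0.0785), Sema4g (10.7 FPKM in R6/1, 8.14 FPKM in wild type, q = 0.0833) and Slit3, a Robo ligand (12.6 FPKM in R6/1, 16.05 FPKM in wild type, q = 0.0927) in the authors' deposited table.

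Other members with large differences at 8 weeks had higher q. The ephrin Efna3 was at 22.8 FPKM in R6/1 and 29.8 FPKM in wild type (q = 0.147 in the authors' deposited table). The largest differences upward after Sema6c and Sema4g were in Ephb2 (3.37 FPKM in R6/1, 2.51 FPKM in wild type), Plxna1, a co-receptor of class 3 semaphorins (13.8 FPKM in R6/1, 10.97 FPKM in wild type), Epha5 (16.4 FPKM in R6/1, 13.02 FPKM in wild type) and Epha3 (2.28 FPKM in R6/1, 1.65 FPKM in wild type), with q between 0.115 and 0.312 in the authors' deposited table. Over all 65 members the median log2(FPKM + 1) difference was -0.059, with 40 below 0 and 25 above, against 0.0059 for all genes. By family, semaphorins lay below 0 in 14 of 20 cases, plexins in 7 of 9 and ephrins in 6 of 7, while netrins lay above 0 in 3 of 3. Among all genes 6851 lay below 0 and 7254 above.

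In CHL2 striatum at 1 year 8 of 65 listed members rose and 3 fell, against 1.67% and 1.97% of all rows, and 54 missed the threshold. The 8 were 3 plexins, both neuropilins, 2 Slits and 1 Unc5 receptor. Slit1, a repellent ligand of Robo receptors, was at 17.2 FPKM in CHL2 against 10.9 FPKM in wild type (log2 fold change 0.66), and Slit2 at 5.18 FPKM in CHL2 against 3.42 FPKM in wild type (0.60), both with q = 0.00303 in the authors' deposited table. Slit3 (11.9 FPKM in CHL2, 10.5 FPKM in wild type, q = 0.557) and the 4 Robos (q from 0.267 to 0.748) missed the threshold in the authors' deposited table.

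The receptors that rose in CHL2 include partners of class 3 semaphorins. Plxna1 was at 15.1 FPKM in CHL2 against 10.8 FPKM in wild type (0.48, q = 0.00303) and Plxna3 at 8.10 FPKM in CHL2 against 6.02 FPKM in wild type (0.43, q = 0.0207) in the authors' deposited table. The neuropilins Nrp1 (6.48 FPKM in CHL2, 4.73 FPKM in wild type, 0.45, q = 0.0222) and Nrp2 (11.3 FPKM in CHL2, 8.49 FPKM in wild type, 0.41, q = 0.0386) rose in the authors' deposited table. Their ligands, the 7 class 3 semaphorins, had q of 0.123 or more in the authors' deposited table and a median log2(FPKM + 1) difference of -0.0093. Plxnc1, the plexin that binds Sema7a, was at 14.9 FPKM in CHL2 against 10.1 FPKM in wild type (0.57, q = 0.00303 in the authors' deposited table), where its ligand fell. Sema7a also fell in R6/1 at 8 and 10 weeks, and there Plxnc1 did not pass. At 8 weeks Plxnc1 was at 9.95 FPKM in R6/1 and 10.3 FPKM in wild type. The netrin receptor Unc5d was at 9.67 FPKM in CHL2 against 6.15 FPKM in wild type (0.65, q = 0.00303 in the authors' deposited table).

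Besides Sema7a, the members that fell in CHL2 were Sema5b, a transmembrane semaphorin, and Epha8, a receptor of A-class ephrins. Sema5b was at 6.47 FPKM in CHL2 against 9.49 FPKM in wild type (-0.55, q = 0.00539) and Epha8 at 4.17 FPKM in CHL2 against 5.98 FPKM in wild type (-0.52, q = 0.0163) in the authors' deposited table. In R6/1 at 8 weeks their values were also the lower ones without passing, with Sema5b at 6.81 FPKM in R6/1 and 8.63 FPKM in wild type (q = 0.196) and Epha8 at 3.26 FPKM in R6/1 and 4.38 FPKM in wild type (q = 0.151) in the authors' deposited table. Outside the threshold in CHL2 were Sema5a (6.21 FPKM in CHL2, 4.75 FPKM in wild type, q = 0.0542), Ntn5 (1.31 FPKM in CHL2, 0.644 FPKM in wild type, q = 0.0860), Epha6 (9.35 FPKM in CHL2, 6.498 FPKM in wild type, q = 0.162), Unc5b (9.51 FPKM in CHL2, 11.8 FPKM in wild type, q = 0.164) and Efna1 (3.03 FPKM in CHL2, 3.78 FPKM in wild type, q = 0.641) in the authors' deposited table.

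Transcript length and markers of neighbouring tissue moved with the rises in CHL2. The log2(FPKM + 1) difference had a Spearman correlation of 0.39 with transcript length across 14136 genes and 0.32 across the 65 members. The 8 members that rose have a median longest transcript of 7123 bases and the 3 that fell one of 4646 bases. Of the 49 members with a longest transcript of at least 3949 bases 7 rose, against 2.96% of all genes of at least that length. Among all genes in the longest of the 10 length classes, which holds 15 of the members, 5.59% rose. Taking off the median of genes in the same class brought the members' median difference to 0.00048, against 0.080 before. The 8 were picked for high values in this same comparison, so their standing above their class medians is no test of length. The septal and hypothalamic markers rose in 7 of 8 cases in CHL2, and their part in the rises was not tested.

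**Figure D4:**
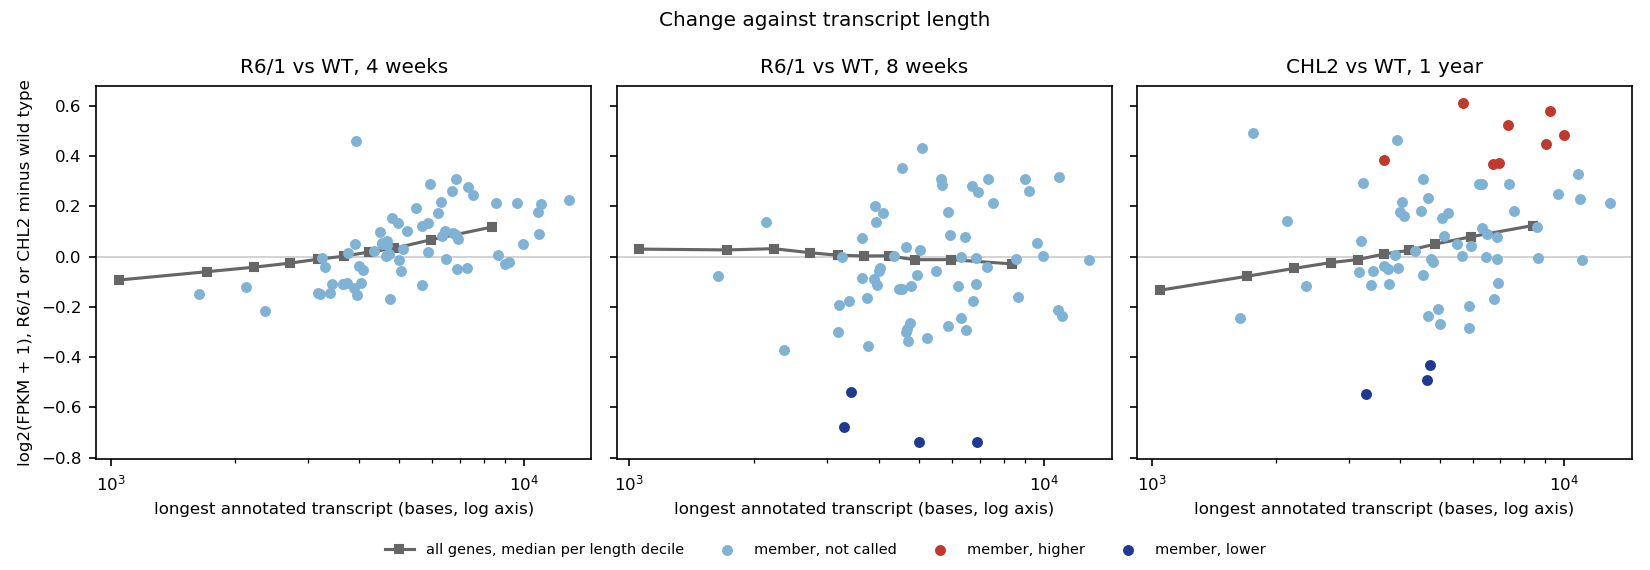
Difference in log2(FPKM + 1), R6/1 or CHL2 minus wild type (y axis), against the longest annotated transcript in bases (log x axis) for the members (circles) at 4 weeks, 8 weeks and 1 year. Grey squares give the median of all genes in each of 10 classes of transcript length. This median climbs with length at 4 weeks and in CHL2 and is nearly flat at 8 weeks. The CHL2 members that rose lie above it, but they were picked for high values there.

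Between the control-AAV groups at 10 weeks 4 of 61 listed members fell and 1 rose, against 2.51% and 0.724% of all rows. Along with Sema7a, Plxnd1 and Robo3, Ephb6 fell, at 25.9 FPKM in R6/1 against 40.0 FPKM in wild type (log2 ratio -0.63, q = 0.0414 in the authors' deposited table). Slit1 rose, at 12.5 FPKM in R6/1 against 7.60 FPKM in wild type (0.72, q = 0.0389 in the authors' deposited table), and at 8 weeks it stood at 14.1 FPKM in R6/1 and 11.4 FPKM in wild type without passing (q = 0.192 in the authors' deposited table). Other large differences downward were in Epha7 (14.3 FPKM in R6/1, 20.5 FPKM in wild type, q = 0.255) and Robo2, a main Slit receptor (10.8 FPKM in R6/1, 15.6 FPKM in wild type, q = 0.142) in the authors' deposited table. Upward they were in Sema4g (11.3 FPKM in R6/1, 7.198 FPKM in wild type, q = 0.122), Nrp2 (7.60 FPKM in R6/1, 4.81 FPKM in wild type, q = 0.122), Plxnb3 (7.45 FPKM in R6/1, 5.21 FPKM in wild type, q = 0.319) and Sema6a (6.41 FPKM in R6/1, 4.46 FPKM in wild type, q = 0.329) in the authors' deposited table. These pools hold 2 libraries each, and their septal, hypothalamic and choroid plexus sums given above differ by more than those of any other genotype comparison.

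Elk-1 AAV changed no guidance gene past the threshold. Of 59 listed members 0 rose and 0 fell, against 0.299% and 0.276% of all rows. At an unadjusted p below 0.05 in the authors' deposited table (Cuffdiff), 2 were higher and 7 lower in Elk-1-AAV R6/1, against 2.61% and 2.30% of all rows. The genotype and Elk-1 tables share the control-AAV R6/1 pool, which enters them on opposite sides, so opposite signs are not read as a result. In the Elk-1 table every member of that pool is scaled up by a factor between 1.023 and 1.024. The values of that table are therefore given side by side with no test between tables.

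Robo3 was at 2.85 FPKM in Elk-1-AAV R6/1 and 1.31 FPKM in control-AAV R6/1 (log2 ratio 1.13, q = 0.174 in the authors' deposited table). Ephb6 was at 36.3 FPKM in Elk-1-AAV R6/1 and 26.5 FPKM in control-AAV R6/1 (0.46, q = 0.470 in the authors' deposited table). Plxnd1 was at 10.2 FPKM in Elk-1-AAV R6/1 and 7.98 FPKM in control-AAV R6/1 (q = 0.999), and Sema7a at 40.7 FPKM in Elk-1-AAV R6/1 and 33.5 FPKM in control-AAV R6/1 (q = 0.999) in the authors' deposited table. The remaining largest differences upward were in Sema3b (2.78 FPKM in Elk-1-AAV R6/1, 1.88 FPKM in control-AAV R6/1) and Epha7 (18.1 FPKM in Elk-1-AAV R6/1, 14.6 FPKM in control-AAV R6/1). Downward they were in Epha10, another Eph receptor without kinase activity (2.38 FPKM in Elk-1-AAV R6/1, 3.72 FPKM in control-AAV R6/1), Unc5d (3.53 FPKM in Elk-1-AAV R6/1, 5.30 FPKM in control-AAV R6/1), Efna5 (4.07 FPKM in Elk-1-AAV R6/1, 5.73 FPKM in control-AAV R6/1), Plxnc1 (7.31 FPKM in Elk-1-AAV R6/1, 10.0 FPKM in control-AAV R6/1), Unc5c (2.90 FPKM in Elk-1-AAV R6/1, 4.18 FPKM in control-AAV R6/1) and Sema4g (8.55 FPKM in Elk-1-AAV R6/1, 11.6 FPKM in control-AAV R6/1). Septal and hypothalamic markers were lower in Elk-1-AAV R6/1 in 7 of 7 cases with 3 falls, and thalamic and pallidal markers in 4 of 4 with 3 falls. Choroid plexus markers summed to 2290 in Elk-1-AAV R6/1 against 1610.5 in control-AAV R6/1. Cortical excitatory neuron markers summed to 410 in Elk-1-AAV R6/1 against 318 in control-AAV R6/1. The part of all these markers in the values above was not tested.

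The 4 genotype comparisons share no library, so the members' differences in them can be set against each other as a description. On the log2(FPKM + 1) scale the Pearson r between R6/1 at 8 weeks and the control-AAV genotype comparison was 0.62 across 60 members and 0.42 across 12861 genes. Between 8 weeks and CHL2 it was 0.62 across 64 members and 0.45 across 14004 genes. The sign was shared by 38 of 60 members (63.3%, against 62.7% of all genes) and by 44 of 64 members (68.8%, against 60.5%). Between CHL2 and the control-AAV comparison r was 0.48 across 61 members and 0.35 across 12893 genes. For the 4-week differences r with 8 weeks was 0.30 across 65 members and 0.19 across 13973 genes, with CHL2 0.22 across 64 members and 0.32 across 14042 genes, and with the control-AAV comparison 0.046 across 60 members and 0.00011 across 12870 genes. The sign was shared with 4 weeks by 56.9%, 56.2% and 46.7% of members in these 3 pairs, against 53.9%, 66.5% and 49.3% of all genes. These correlations are across genes of the same pools, and whether the members differ from other genes was not tested.

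Among the wild-type pools, 5 of 64 members were lower at 1 year than at 4 weeks by more than 0.5 in log2(FPKM + 1) and 0 higher by as much, against 262 and 437 of 14047 genes. The 3 tables were normalized separately, the ages were not compared by a test, and the 5 genes were chosen after their values were seen. Sema6a, a transmembrane semaphorin, was at 12.7, 8.56 and 5.69 FPKM in wild type at 4 weeks, 8 weeks and 1 year. Sema4d, a semaphorin also made by oligodendrocytes, was at 27.7, 20.3 and 15.2 FPKM at these ages, and Sema5a at 8.38, 6.82 and 4.75 FPKM. The other two were Nrp1, at 7.67, 5.52 and 4.73 FPKM, and the ephrin Efna5, at 5.01, 3.60 and 3.05 FPKM. Sema6a and Sema4d kept this order in the mutant pools, where Sema6a was at 13.6 and 8.53 FPKM in R6/1 at 4 and 8 weeks and at 6.07 FPKM in CHL2 at 1 year, and Sema4d at 29.7, 18.5 and 17.4 FPKM. The other three had a higher value in CHL2 at 1 year than in R6/1 at 8 weeks, with Sema5a at 9.62, 5.75 and 6.21 FPKM, Nrp1 at 7.04, 5.14 and 6.48 FPKM and Efna5 at 4.58, 3.45 and 3.71 FPKM.

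Sema7a, Plxnd1 and Robo3 had the highest of their 3 wild-type values at 8 weeks, as did 29 of 64 members (45.3%) and 26.3% of 14047 genes. These 3 genes were picked for a low R6/1 value against the same 8-week wild-type pool, which favours a high value there. Sema7a was at 39.7, 51.9 and 37.1 FPKM in wild type at 4 weeks, 8 weeks and 1 year, Plxnd1 at 21.2, 30.5 and 22.6 FPKM, and Robo3 at 2.47, 3.12 and 2.01 FPKM. In R6/1 each was lower at 8 weeks than at 4 weeks, at 38.5 and 32.1 FPKM for Sema7a, 20.5 and 17.9 FPKM for Plxnd1 and 2.44 and 1.47 FPKM for Robo3 at 4 and 8 weeks. The difference between ages was not tested.

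Beyond the members, 65 symbols of co-receptors, other cues and signalling proteins of axon guidance were followed, of which 61 to 63 were listed per table. Among these symbols Grb4 is another name of Nck2, which is also on the list. At 4 weeks 0 of 63 were called, with 3 higher and 0 lower at an unadjusted p below 0.05 in the authors' deposited table (Cuffdiff), against 3.26% and 2.10% of all rows. Under Elk-1 AAV 0 of 61 were called, with 1 higher and 3 lower by the same measure, against 2.61% and 2.30% of all rows. At 8 weeks 4 of 63 (6.35%) fell and 0 rose, against 5.34% and 0.789% of all rows, a share near that of all rows. At an unadjusted p below 0.05 in the authors' deposited table (Cuffdiff), 10 were lower and 3 higher, against 10.4% and 3.86% of all rows. Ngef, the ephexin that acts below EphA receptors, was at 132 FPKM in R6/1 against 236 FPKM in wild type (-0.83, q = 0.00160), and Chn1, the chimaerin that acts below EphA4, at 166 FPKM in R6/1 against 265 FPKM in wild type (-0.67, q = 0.00300) in the authors' deposited table. Mical2, of the MICAL family of actin-oxidizing enzymes, fell as well (27.1 FPKM in R6/1, 37.5 FPKM in wild type, q = 0.0111 in the authors' deposited table).

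Between the control-AAV groups 3 of 61 (4.92%) fell and 1 (1.64%) rose, against 2.51% and 0.724% of all rows. Ngef (138 FPKM in R6/1, 235 FPKM in wild type), Chn1 (191 FPKM in R6/1, 351 FPKM in wild type) and Mical2 (37.1 FPKM in R6/1, 65.6 FPKM in wild type) fell with q = 0.00312, and Vav3, a guanine nucleotide exchange factor, rose (4.93 FPKM in R6/1, 2.20 FPKM in wild type, q = 0.0494) in the authors' deposited table. In CHL2 1 of 63 (1.59%) fell and 3 (4.76%) rose, against 1.97% and 1.67% of all rows. Ngef was at 135 FPKM in CHL2 against 195 FPKM in wild type (-0.53, q = 0.00303 in the authors' deposited table). The adhesion molecule Chl1 (27.3 FPKM in CHL2, 17.9 FPKM in wild type, q = 0.00303), the receptor tyrosine kinase Met (1.15 FPKM in CHL2, 0.455 FPKM in wild type, q = 0.00303) and the kinase Pak3 (21.96 FPKM in CHL2, 16.4 FPKM in wild type, q = 0.00750) rose in the authors' deposited table. The EphA receptor Epha4 itself passed in none of the 5 tables, with 35.7 FPKM in R6/1 and 33.6 FPKM in wild type at 4 weeks, 33.8 FPKM in R6/1 and 40.3 FPKM in wild type at 8 weeks, and 30.0 FPKM in CHL2 and 27.6 FPKM in wild type at 1 year.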

How the data were processed

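Striatal total RNA went into TruSeq libraries, per the labels' protocols. TopHat, Bowtie, Cufflinks, Cuffdiff and mm9 appear in the submitters' processing notes without versions. The authors deposited 5 tables with no header and no column per library: the group FPKM, the log2 fold change, a test statistic (a score of their program, not used), the p-value and the q-value. The deposited q-value equals the Benjamini-Hochberg adjustment of the p-value over a table's rows. Depth per library and strandedness are not given here. No label says that libraries of a group are from separate animals, so the p-values may reflect technical spread alone.

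With no values for single libraries the planned limma fits could not be made, so the authors' q below 0.05 is the call. Differences in log2(FPKM + 1) used genes averaging at least 0.5 FPKM, without microRNA and small nucleolar RNA rows, and medians have no test. The longest transcript per symbol came from GENCODE M21 and matched at least 98.8% of genes. The adjustment and length steps were tested on simulated data. Genes named are those called in any table, the 6 largest differences each way per table, and the highest and lowest of each family. Members and lists were chosen with earlier results of these data known. One signalling gene counted among the calls is not reported here by name. Marker lists cover 12 cell or tissue types. Positions are on mm9 as listed, without a stated first base, and promoter windows are from RefSeq (GRCm38.p6). Computations used Python 3.11.15, pandas 2.3.3 and numpy 2.4.6.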

Additional observations from a re-analysis of the deposited data

How the results depend on the processing

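Counts of members called were recomputed with q below 0.01 and 0.10, with adjustment over rows of a mean FPKM of at least 1, without members that share a position, and with a minimum log2 fold change of 0.5. The 8 rises in CHL2 became 5 at q below 0.01 and 4 with the minimum fold change. The 1 rise between the control-AAV groups became 0 at q below 0.01, and the 0 rises at 8 weeks became 2 at q below 0.10. The other counts stayed within 1.5 times. The median difference over all members moved by no more than 0.1 on the log2 scale under another pseudocount, minimum, scaling or length correction. Some family medians moved more under the length correction: in CHL2 plexins had 0.091 with it and 0.21 without, and Slits 0.36 with it and 0.49 without, while the 4-week Slits had -0.067 with it and 0.051 without. No call of a named gene was lost when p-values were adjusted over the rows of higher FPKM. Leaving out replicates was not run, because the tables hold no value per library. No paired analysis was possible because the tables hold 1 pooled value per group. The pools of 2 libraries and the lack of known depth limit what the 10-week tables can show.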

Other observations

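The log2 ratio of summed astrocyte markers lay between -0.11 and 0.11 in the 5 comparisons. Oligodendrocyte markers fell in 3 of 8 cases in CHL2 (summed FPKM 3344 in CHL2, 4866 in wild type). Microglial markers summed to 246 in Elk-1-AAV R6/1 and 158 in control-AAV R6/1, with 1 of 6 called higher.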
